A study of Mus musculus with 67 samples.

Results

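Chromatin accessibility at the loci of glutamate and GABA receptor genes was examined in neural progenitors (NPs) made from mouse embryonic stem (ES) cells, by domain and by day. An element is a consensus peak of the ATAC-seq data, and the elements taken were those with a deposited value whose gene in the deposited annotation was 1 of 34 receptor genes. The annotation gives each element 1 gene and the distance to a transcription start site (TSS) of that gene. This gave 347 of 111638 elements, from 1 element at Gabrb1, Grik5, Grin3b and Grm6 to 37 at Gria1. This does not show which gene an element acts on, and the assigned gene was not always the closest.

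In CaTS-ATAC, cells are fixed, their open chromatin is tagged by the Tn5 transposase, and they are stained for transcription factors inside the cell and sorted by flow cytometry before sequencing. All 67 samples came from the HM1 mouse ES cell line, for which the labels name no other genotype, so the groups are cultures of 1 line and not embryos. Cells received bFGF and LGK, then bFGF, CHIR99021, SB-431542 and DMH1, and from day 3 100 nM retinoic acid (RA) with 0, 10, 100 or 500 nM SAG, a smoothened agonist that activates Shh signaling. The NMPs, the progenitors that precede the NPs, were taken at day 3 with 0 nM SAG. The NPs were sorted at days 4, 5 and 6 as p0-1 (PAX6 without NKX6.1) from 0 and 10 nM SAG, p2 (NKX6.1 and PAX6) from 10 and 100 nM, and pMN (OLIG2) and p3 (NKX2.2, the most ventral) from 100 and 500 nM. With the SAG concentrations pooled there were 3 NMP samples. At days 4, 5 and 6 there were 6, 6 and 5 of p0-1, 6, 6 and 6 of p2, 6, 5 and 4 of pMN, and 5, 5 and 4 of p3. These samples are bulk populations, so fewer open cells and less signal per cell cannot be told apart.

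Samples held between 9298160 and 29985325 reads in elements, with a median of 20254011. Values are given as normalized counts, the reads in an element divided by the size factor of the sample. Of the 67 samples, 64 were closest to their own cell type and day over the 30000 most variable elements. The exceptions were p2 at 100 nM SAG, replicate 3, at day 5 and at day 6, which were closest to p0-1, and p0-1 at 0 nM, replicate 3, at day 6, which was closest to p0-1 at day 5. Of 5 NMP marker elements, 3 were called lower from NMPs to each domain at day 4. The element at Cdx1 fell from 2296 normalized counts in NMPs to between 118 and 156 at day 4. At day 6, Olig2 was at 2325 in pMN against 408 in p0-1, and Foxa2 was at 1662 in p3 against 261 in p0-1. Other marker values did not set a group apart: Tbx6, an NMP gene, was at 778 in NMPs and between 693 and 857 at day 6, Foxa2 was at 1494 in NMPs, and Nkx2-9, a p3 gene, was at 2091 in pMN and 1914 in p3 at day 6. The element nearest the TSS of the neuronal gene Elavl4 was also higher at day 6 in pMN, at 1676, than in p0-1, at 497. Tubb3 (1749 against 1233), Elavl3 (1299 against 844), Slc18a3 (456 against 305), Stmn2 (272 against 188) and Dcx (146 against 119) were higher in pMN too. Those of Mnx1 (757 against 825) and Snap25 (411 against 429) went the other way, and Isl1 differed little (1069 against 1049). The median log2 ratio of pMN to p0-1 over the 9 was 0.50. Of 9 post-mitotic neuron marker elements, 0 were called between pMN and p0-1 at day 6. The summed level of 9 post-mitotic neuron marker elements ranged from 7317 to 8872 in the NMP samples, with a mean above that of every NP group. It ranged from 4330 to 6267 over the p0-1 samples of day 6, from 4944 to 8461 in p2, from 7277 to 8307 in pMN and from 5662 to 6732 in p3. No marker of this list was at 0 in a group, and its part in the results below was not tested.

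Glutamate is the main excitatory and GABA the main inhibitory transmitter of the mature nervous system. AMPA (Gria), kainate (Grik) and NMDA (Grin) receptors are glutamate-gated channels, Grid1 encodes a delta receptor of the same family, and the Grm genes encode metabotropic glutamate receptors that signal through G proteins. GABA-A receptors (Gabra, Gabrb, Gabrg) are chloride channels and GABA-B receptors (Gabbr) are coupled to G proteins. Most of these genes are known for their expression in neurons, and some of them also in progenitors and glia.

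Elements are named by their gene and their distance from its TSS in kb, negative upstream. The central 300 bases of 8 elements, 1 for each pattern of accessibility described below, are shown from the + strand of RefSeq GRCm38.p6, the assembly of the mm10 coordinates in the files. Grik3 -70.2 kb was open in NMPs and then low in every NP group. Grm7 +631.4 kb rose in every domain by day 4, and Grm2 -3.5 kb rose less in p3 than elsewhere. Gria1 +79.9 kb rose after day 4 to a lower level in p3 than elsewhere, and Grik3 -39.7 kb was lowest in p0-1. Grin2a +294.5 kb was highest in p0-1, Grin2a +479.6 kb in p3 and Grm3 +34.3 kb in pMN. Capitals mark matches, on either strand, to the motifs TGTTTAC (forkhead), CAGATG (an E-box of proneural bHLH factors), ACAAAG (SOX core) and TTCAGCACC (the left part of the RE1 site of REST).
Grik3 -70.2 kb (chr4:125420388-125420687): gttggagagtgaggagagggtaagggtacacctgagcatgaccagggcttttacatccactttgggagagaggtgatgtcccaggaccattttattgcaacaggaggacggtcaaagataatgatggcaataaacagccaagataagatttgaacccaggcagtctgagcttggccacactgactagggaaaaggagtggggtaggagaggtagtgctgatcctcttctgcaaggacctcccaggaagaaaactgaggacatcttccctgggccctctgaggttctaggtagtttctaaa
Grm7 +631.4 kb (chr6:111276809-111277108): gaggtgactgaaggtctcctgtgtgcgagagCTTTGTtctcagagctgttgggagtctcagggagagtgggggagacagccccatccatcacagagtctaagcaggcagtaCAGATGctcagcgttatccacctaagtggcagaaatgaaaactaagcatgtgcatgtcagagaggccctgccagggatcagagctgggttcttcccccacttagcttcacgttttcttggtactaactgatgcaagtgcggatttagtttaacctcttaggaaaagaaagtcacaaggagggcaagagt
Grm2 -3.5 kb (chr9:106659413-106659712): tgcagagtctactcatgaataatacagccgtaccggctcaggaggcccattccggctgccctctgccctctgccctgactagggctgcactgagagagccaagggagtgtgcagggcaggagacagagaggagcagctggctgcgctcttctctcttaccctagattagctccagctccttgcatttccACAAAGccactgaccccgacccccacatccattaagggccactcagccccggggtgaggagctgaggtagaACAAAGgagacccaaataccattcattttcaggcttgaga
Gria1 +79.9 kb (chr11:57091326-57091625): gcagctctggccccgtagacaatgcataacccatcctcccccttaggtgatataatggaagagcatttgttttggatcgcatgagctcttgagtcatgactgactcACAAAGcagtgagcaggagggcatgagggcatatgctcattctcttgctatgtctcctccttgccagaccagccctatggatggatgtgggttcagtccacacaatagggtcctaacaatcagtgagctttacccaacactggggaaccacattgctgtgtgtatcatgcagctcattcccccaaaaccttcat
Grik3 -39.7 kb (chr4:125450825-125451124): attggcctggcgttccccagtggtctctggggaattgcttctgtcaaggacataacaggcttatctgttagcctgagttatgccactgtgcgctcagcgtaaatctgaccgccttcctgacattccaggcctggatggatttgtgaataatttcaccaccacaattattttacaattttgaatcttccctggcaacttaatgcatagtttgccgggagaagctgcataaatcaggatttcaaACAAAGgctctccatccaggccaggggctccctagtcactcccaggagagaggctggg
Grin2a +294.5 kb (chr16:9701170-9701469): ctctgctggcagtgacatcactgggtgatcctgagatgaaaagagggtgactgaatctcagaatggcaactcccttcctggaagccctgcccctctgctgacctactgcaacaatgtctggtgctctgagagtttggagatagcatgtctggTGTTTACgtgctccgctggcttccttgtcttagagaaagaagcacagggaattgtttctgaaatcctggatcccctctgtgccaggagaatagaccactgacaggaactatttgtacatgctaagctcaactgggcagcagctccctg
Grin2a +479.6 kb (chr16:9516060-9516359): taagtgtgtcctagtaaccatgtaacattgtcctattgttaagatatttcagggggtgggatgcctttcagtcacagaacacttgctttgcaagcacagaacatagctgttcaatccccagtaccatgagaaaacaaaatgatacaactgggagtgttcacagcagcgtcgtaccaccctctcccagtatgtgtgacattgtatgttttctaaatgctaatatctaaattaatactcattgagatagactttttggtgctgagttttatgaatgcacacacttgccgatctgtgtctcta
Grm3 +34.3 kb (chr5:9690858-9691157): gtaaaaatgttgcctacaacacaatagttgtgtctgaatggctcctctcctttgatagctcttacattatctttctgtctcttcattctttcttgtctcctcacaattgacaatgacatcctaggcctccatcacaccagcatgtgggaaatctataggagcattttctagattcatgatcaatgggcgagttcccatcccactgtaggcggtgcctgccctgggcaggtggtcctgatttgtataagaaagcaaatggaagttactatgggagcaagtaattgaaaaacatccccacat

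A match is a sequence of letters and not a bound site. Grm7 +631.4 kb held 2 matches, CAGATG on the + strand and ACAAAG on the - strand, and Grm2 -3.5 kb held ACAAAG at 2 places. Gria1 +79.9 kb and Grik3 -39.7 kb held 1 ACAAAG each and Grin2a +294.5 kb held 1 TGTTTAC. Over the central 300 bases of the 347 receptor elements, TGTTTAC was found in 8.07% against 4.96% of all elements without unknown bases, CAGATG in 28.5% against 25.7% and ACAAAG in 34.6% against 31.1%. Among the 77 with a mean above 100 normalized counts, the order turned for CAGATG (18.2% against 18.5% of all such elements) and ACAAAG (19.5% against 24.7%) and not for TGTTTAC (5.19% against 3.24%). TTCAGCACC was found in 4 receptor elements, 1.15% against 0.456% of all, and these were the element at the first exon of Grin1, the promoter of Grm2, an intron of Grm4 and an intergenic element upstream of Gria3. No test was made of these shares.

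Receptor elements lay far from promoters. Of the 347, 179 were in introns (51.6% against 41.1% of all elements), 133 were intergenic (38.3% against 44.2%), 20 were in exons (5.76% against 5.88%), 12 were annotated promoter-TSS (3.46% against 7.41%) and 3 were at transcript ends (0.865% against 1.36%). The median distance to the TSS was 109705 bp against 32610.5 bp for all elements, and 182 lay beyond 100 kb (52.4% against 24.0%). Of 199 intronic or exonic elements, 192 were in the receptor gene itself and 7 in another gene. Among these 7, Grm2 -3.5 kb was in intron 4 of Tex264, Grin2c +30.4 kb in intron 9 of Tmem104 and Grm8 -127.1 kb in exon 1 of Zfp800. The mean over all samples was above 100 normalized counts for 77 receptor elements (22.2% against 28.4% of all), and 154 (44.4% against 52.5%) exceeded 100 in at least 1 sorted group. The other 193 exceeded 100 in no group. Each of the 34 genes had at least 1 element above 100 in some group.

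Accessible elements were found in every domain, and in each domain more of them were above 100 normalized counts at day 6 than at day 4. The number of receptor elements above 100 normalized counts was 67 in NMPs. At day 4 it was 62 in p0-1, 68 in p2, 67 in pMN and 58 in p3, so that p0-1 and p3 were below NMPs. At day 5 it was 81, 78, 86 and 74. At day 6 it was 88, 91, 86 and 84, between 24.2% and 26.2% of the 347, beside 27.9% to 29.8% of all elements. Of all elements, 29.4% were above 100 in NMPs and 26.2% to 26.8% at day 4, so that share also rose from day 4 to day 6 in each domain. Sample by sample the count of receptor elements ran from 62 to 69 in NMPs and from 76 to 104 at day 6, without overlap. All elements were not counted sample by sample. Above 30 normalized counts there were 109 elements in NMPs, 173, 194, 191 and 154 at day 5 and 169, 193, 183 and 168 at day 6. Between these days this number rose in p3 alone, as did the share of all elements. That share went from 57.2% to 58.6% in p3. In p0-1 it went from 56.2% to 55.3%, in p2 from 58.53% to 58.49% and in pMN from 57.8% to 57.2%. The median level of a receptor element was 6.73 normalized counts in NMPs, against 31.6 for all elements, and between 28.2 and 37.2 at day 6, against 36.2 to 41.5. Of the 154 elements above 100 in some group, 57 were highest in NMPs, 23 in p3 at day 6, 15 in p0-1 at day 6, 14 in p2 at day 6 and 12 in pMN at day 6. Among the day 6 groups alone the order differed. Of 129 elements above 100 there in at least 1 domain, 49 were highest in p0-1, 37 in p3, 22 in p2 and 21 in pMN. The shares of all elements were not counted for these rankings.

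These numbers held 2 kinds of element with opposite courses, as the plot of levels by distance shows. Within 1000 bp of a receptor TSS there were 30 elements at 30 genes, and all 30 were above 100 normalized counts in NMPs, between 245 and 1344 with a median of 643. Such a level in NMPs was also found for 92.1% of all elements within 1000 bp of a TSS. Of the 30, 27 were highest in NMPs, 90.0% against 58.8% of all such elements. Their median log2 ratio from NMPs to day 4 was -0.76 in p0-1, -1.03 in p2, -1.04 in pMN and -0.995 in p3, against -0.39, -0.56, -0.55 and -0.45 for all elements near a TSS. The other 317 elements had a median of 5.12 in NMPs, where 37 (11.7% against 20.5%) exceeded 100. Their median log2 ratio to day 4 was 1.17, 1.40, 1.57 and 1.18, against 0.38, 0.54, 0.57 and 0.41 for all elements beyond 1000 bp, and at day 6 there were 101 of the 317 above 100 in at least 1 domain. The scaling of the samples is relative to all elements, and the 4 comparisons with NMPs share the same 3 NMP samples.

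**Figure D1:**
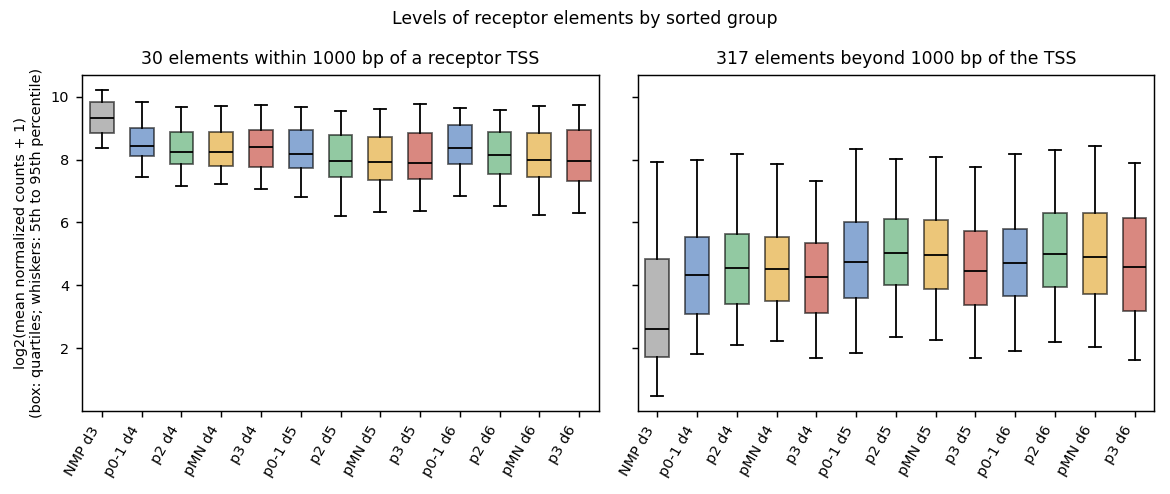
Levels of the receptor elements in each sorted group (x axis) as log2 of the mean normalized counts plus 1 (y axis), for the 30 elements within 1000 bp of a receptor TSS and the 317 beyond it. Boxes span the quartiles with a line at the median and whiskers reach the 5th and 95th percentiles. The near elements are highest in NMPs, where their median is 643, and the far elements are lowest there, where their median is 5.12.

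The 12 promoter-TSS elements, at 12 genes, were called in no comparison. The highest group mean was between 1.34 times (Grm3) and 5.21 times (Grm6) the lowest, and 10 of the 12 were highest in NMPs. At Grm6, a metabotropic receptor gene, the promoter was at 669 normalized counts in NMPs, 260 in p0-1 at day 4 and 128 in p3 at day 6. The promoter element annotated to Gabra4, which the annotation places at the TSS of Gabrb1, was at 640 in NMPs and 150 in p3 at day 6. That of Gabrg3, placed at the TSS of Gm9962, was at 409 in NMPs and 103 in pMN at day 5, and that of Grm2 at 659 and, in p3 at day 5, 213. The exceptions were Grm3, highest in p0-1 at day 6 at 553, and Gabrg1. The promoter of Gabrg1, a gamma subunit of the GABA-A receptor (chr5:70842161-70843670), was at 288, 425 and 406 in the NMP samples and between 577 and 1331 in all NP samples of day 4, with means of 918, 986, 1140 and 789 from p0-1 to p3. At day 5 its means lay between 416 and 495 and at day 6 between 390 and 590, so it was highest at day 4 in every domain. Its fold stayed under the threshold of the calls.

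Several of the other elements at a TSS were called in no comparison. Per kb of element, the highest of any receptor element was at exon 1 of Grin2d, with an overall mean of 843 normalized counts per kb. The element at exon 1 of Gabbr1, a subunit of the GABA-B receptor, had 442 per kb and an overall mean of 734 counts, and that of Gabbr2 98.6 per kb and 351 counts. No element of the GABA-B genes was called with the filter on the mean. The TSS elements of Gria4 (366 per kb), Grik1 (151), Grik4 (280), Grik5 (313), Grin3a (194), Grin3b (62.9), Gabra5 (247) and Gabrb1 (175) were also uncalled, as was the promoter of Gria2 (272). The most accessible element per kb of Grm4, at -9.1 kb (515), of Grm8, at -127.1 kb (436), of Grm5, at +310.9 kb (155), and of Grid1, at -51.0 kb (274), lay outside the promoter and was uncalled.

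The first question was which receptor elements changed as NMPs became NPs. Elements were called at an adjusted p under 0.01 in limma's test of the variance-stabilized values and a fold of mean normalized counts above 4, a log2 ratio beyond 2 with a pseudocount of 1. The test was run on elements with a mean above 100 in the samples compared, with Benjamini-Hochberg adjustment over all of them. An element that passed this filter only through the group where it was high had to differ, so these counts are given as a description. From NMPs to p0-1, 7 of 64 tested receptor elements were called higher, where 14.4% of all tested elements were, and 5 lower (6.21% of all). To p2 there were 10 higher (16.4%) and 6 lower (7.13%) of 66. To pMN there were 10 higher (16.9%) and 6 lower (7.41%) of 66, and to p3 5 higher (13.8%) and 5 lower (7.74%) of 62. In none of these 4 fits was the share of receptor elements called higher above that of all tested elements.

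Without the filter, where all 347 were tested, more were called higher than the background, all of them beyond 1000 bp from the TSS. The counts were 90 higher in p0-1 (background 18.7%) and 26 lower (8.85%), 124 higher in p2 (22.4%) and 27 lower (9.72%), 120 higher in pMN (22.5%) and 27 lower (10.1%), and 96 higher in p3 (20.0%) and 27 lower (9.8%). Among the 317 elements beyond 1000 bp the shares called higher were 28.4%, 39.1%, 37.9% and 30.3%, against 21.1%, 25.3%, 25.5% and 22.7% of all elements at such distances. Of the receptor classes, AMPA had the most elements called higher in each of these fits, 32, 39, 33 and 27 of 73, with a median log2 ratio of 1.92, 2.14, 1.96 and 1.45. Kainate elements had 14, 25, 26 and 18 of 82 called higher, NMDA 14, 18, 19 and 17 of 56, metabotropic 16, 23, 23 and 15 of 65, GABA-A 10, 14, 13 and 14 of 50, GABA-B 4, 5, 6 and 4 of 15 and delta 0, 0, 0 and 1 of 6. The median of all tested elements with the filter was -0.39, -0.51, -0.49 and -0.46, and centring each sample on its median changed the filtered calls to 9 higher and 1 lower, 10 and 3, 12 and 4, and 5 and 4.

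**Figure D2:**
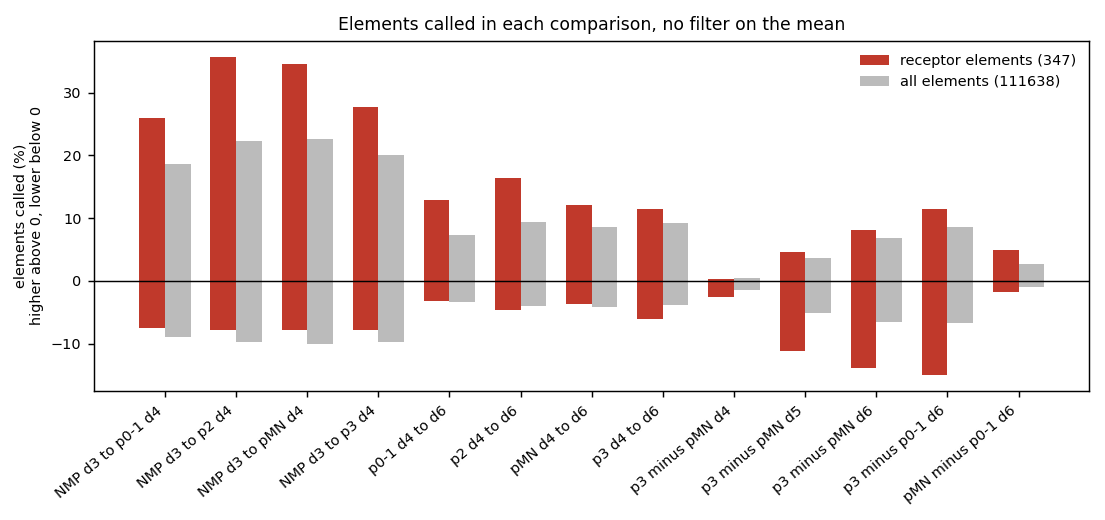
Share of elements called (y axis, in percent, higher above 0 and lower below 0) without a filter on the mean in 13 comparisons (x axis), for the 347 receptor elements and for all 111638 elements. From NMPs to day 4 between 90 and 124 receptor elements are called higher, and the red bars reach above the gray ones in each of these comparisons.

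Of the called elements, the largest rise from NMPs was at Grm7, which encodes a presynaptic metabotropic receptor. Grm7 +631.4 kb, in intron 7 of the gene (chr6:111276546-111277371), was at 1.21, 4.05 and 4.31 normalized counts in the NMP samples. At day 4 it was between 233 and 544 in p0-1 with a median of 487, between 379 and 507 in p2 with a median of 453, and between 337 and 424 in pMN with a median of 365. In p3 it was at 303, 372, 381, 412 and 348. No NP sample came near the NMP values, and the log2 ratios were 6.76, 6.76, 6.49 and 6.44. The element passed the filter through the NPs, and in the fits without the filter limma gave adjusted p between 1.33e-15 and 1.50e-09. At day 6 the means were 273, 285, 411 and 305. A second element of the gene, Grm7 +506.2 kb in intron 4, was at 0, 5.4 and 4.31 in NMPs and had day 4 means of 181 in p0-1, 184 in p2, 182 in pMN and 124 in p3, and it was called in the first 3. One p0-1 sample (10 nM, replicate 3) was at 11.8 and 1 p3 sample (100 nM, replicate 1) at 6.06, close to NMPs, and the p0-1 call was lost with limma's voom on the recovered reads (adjusted p = 0.0273). The element at exon 1 of Grm7 went the other way, from 619 to 670 in NMPs to means of 141 in p2, 147 in pMN and 149 in p3, with log2 ratios of -2.18, -2.12 and -2.11.

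Grm2, a metabotropic receptor gene, also had an element that rose early. Grm2 -3.5 kb (chr9:106659206-106659919) was at 18.2, 8.09 and 14 normalized counts in NMPs. At day 4 it was between 352 and 545 in p0-1 (median 509), 379 and 536 in p2 (median 434) and 323 and 427 in pMN (median 396), and at 178, 146, 213, 137 and 206 in p3. All p3 samples were above the NMP samples and below every other NP sample of that day. The log2 ratios were 5.09 in p0-1, 4.96 in p2, 4.74 in pMN and 3.62 in p3. This element also passed the filter through the NPs, and without the filter limma gave adjusted p between 2.84e-14 and 5.28e-09. At day 6 the p0-1 samples were at 675, 1093, 882, 836 and 1410, the p2 samples between 764 and 1288 (median 853), the pMN samples at 747, 984, 567 and 736, and the p3 samples at 114, 139, 61.2 and 92.2. The p3 samples did not overlap with the others, and the log2 ratio was -2.89 to pMN and -3.26 to p0-1. The promoter of Grm2 at day 6 had means of 330, 274, 254 and 219 from p0-1 to p3.

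Several other elements rose by day 4. Grin2c +30.4 kb rose in all domains from a mean of 31.2 to 308, 307, 318 and 196. Grin2b -45.2 kb, upstream of an NMDA subunit gene, rose from 4.85, 2.7 and 2.15 in NMPs to a mean of 209 in p3 (log2 ratio 5.63, limma adjusted p without the filter 2.56e-10). It also had day 4 means of 98.8 in p0-1, 129 in p2 and 113 in pMN, but in those comparisons its mean was below the filter. Grik2 +371.3 kb, in intron 9 of a kainate subunit gene, rose from 35.7 to 207, 286, 271 and 367, and its p0-1 call was lost when NMP replicate 1 or NMP replicate 2 was left out (limma adjusted p = 0.0165 and 0.0133) or with voom (adjusted p = 0.066). Gria1 -374.7 kb rose from 8.62 to 305 in p0-1, 291 in p2 and 232 in pMN and had a mean of 49.7 in p3. Grin3a -496.5 kb rose to 153 in pMN. Grm4 +64.2 kb and Gabrg3 +219.9 kb were called higher in p2, at 316 and 158, and in pMN, at 341 and 143. Grin2b +59.7 kb was called in p2, at 186, and Grik3 -128.9 kb in p0-1 and p2, at 139 and 148.

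A smaller group was open in NMPs and fell in the NPs. Grik3 -70.2 kb, upstream of a kainate subunit gene (chr4:125419528-125421546), was at 217, 329 and 252 in the NMP samples and at 36.2 or below in every NP sample of day 4, with means of 23.1, 19.5, 20.9 and 18.6. The NMP and day 4 samples did not overlap, and the log2 ratios were -3.47, -3.71, -3.60 and -3.77 (limma adjusted p without the filter at most 1.2e-07). It stayed between 17.8 and 30.3 in the group means of days 5 and 6. Grin1 +7.9 kb, in intron 3 of the obligatory NMDA subunit gene, fell from 301 to between 36.5 and 57.2, and Grin2c +9.2 kb, in exon 5, from 615 to between 102 and 145. Grin2d +8.6 kb, in exon 4, fell from 397 to 90.8 in p0-1, 74.5 in p2 and 81.3 in pMN, and the element 372 bp into Gabra3, an alpha subunit of the GABA-A receptor, from 257 to between 43.7 and 50.1. The p0-1 calls of Grin2c +9.2 kb and Grin2d +8.6 kb were lost without NMP replicate 2, at log2 ratios of -1.97 and -1.98. Grin2c +9.2 kb also lost it without the p0-1 sample of 10 nM, replicate 1, at -1.98. Centring the samples ended the p0-1 calls of Grin1, Grin2c, Grin2d and Gabra3, the p2 calls of Grin2c and Grin2d and the pMN call of Grin2d, at log2 ratios between -1.68 and -1.98.

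The second question was how the loci changed within a domain from day 4 to day 6. Here too an element that passed the filter only through its high group had to differ, so the filtered counts are a description. In p0-1, 10 of 78 tested receptor elements were called higher (background 6.93%) and 1 lower (2.07%). In p2, 11 of 75 were higher (8.2%) and 1 lower (1.9%), in pMN 6 of 72 higher (7.94%) and 1 lower (1.98%), and in p3 11 of 70 higher (7.44%) and 0 lower (1.69%). Without the filter the counts of the 347 were 45 higher (7.37%) and 11 lower (3.34%) in p0-1, 57 (9.32%) and 16 (4.01%) in p2, 42 (8.57%) and 13 (4.13%) in pMN, and 40 (9.18%) and 21 (3.8%) in p3. All of these calls were beyond 1000 bp from a TSS. AMPA elements made up 6, 7, 3 and 5 of the filtered calls higher. The median of all tested elements was 0.23, 0.27, 0.25 and 0.18, and centring the samples left 8, 8, 5 and 9 higher. The pMN count rose to 11 called without replicate 1, and the p3 count fell to 7 without the p3 sample of day 6 at 100 nM, replicate 3, and to 5 without that at 500 nM, replicate 3. Of the samples that stood apart, leaving out p2 at day 6 (100 nM, replicate 3) gave 12 calls in p2, and leaving out p0-1 at day 6 (0 nM, replicate 3) gave 8 in p0-1.

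Gria1, a subunit of AMPA receptors, accounted for many of these changes. Gria1 +79.9 kb, in intron 2 of the gene (chr11:57091081-57091870), was at 17, 9.44 and 6.46 normalized counts in NMPs and at 179 or below in every day 4 sample. At day 6 it was at 785, 974, 770, 831 and 1092 in p0-1, between 338 and 760 in p2 with a median of 554, and at 492, 576, 416 and 375 in pMN. In p3 it also rose, from between 13.2 and 19.7 at day 4 to 84.1, 74.3, 86.6 and 39.8, a rise that was not called with the filter. The samples of p0-1, p2 and pMN at day 6 lay above all their day 4 samples, and the log2 ratios were 3.40, 2.93 and 3.31 (limma adjusted p without the filter 1.01e-06, 2.43e-08 and 4.84e-10). Gria1 -112.8 kb, intergenic (chr11:56898514-56899183), followed the same course: day 4 means of 59.3, 47.9 and 56.7 became 541, 373 and 480, against 34.8 and 69.4 in p3. Gria1 +10.2 kb, also in intron 2, rose to 311 in p0-1 and 282 in p2 and was at 86.0 in pMN and 9.98 in p3.

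Other Gria1 elements had other courses. Gria1 +228.3 kb, in intron 10 (chr11:57239534-57240331), was at most 22.6 in any sample of day 4 and had day 6 means of 204, 138, 130 and 231, so that it was late in all domains and at a similar level in p0-1, between 161 and 247, and in p3, between 221 and 239. It was called in p0-1 (log2 ratio 3.67) and in p3 (4.79). In these fits it passed the filter through day 6, and without the filter limma gave adjusted p of 7.33e-09 and 4.12e-09. In p2 and pMN its mean was below the filter, so it was not tested there with the filter. Gria1 -427.5 kb was called higher in all 4 domains and reached day 6 means of 337, 279, 343 and 243. Gria1 -261.1 kb was transient: it had a mean of 137 in NMPs, 371, 327, 290 and 134 at day 4, and 53.4, 51.2, 66.4 and 32.2 at day 6. Its decrease was called in p0-1, p2 and pMN, with log2 ratios of -2.77, -2.65 and -2.11, and the pMN call was lost without replicate 2, at -1.97. In p3, Gria1 -284.6 kb, -39.0 kb and +238.5 kb rose to 209, 201 and 206. The map of the Gria1 locus shows that some tall elements of p0-1, p2 and pMN are low in p3, while many low elements are present in every domain. Gria1 -427.5 kb and +228.3 kb, at 243 and 231 in p3, are not among those low in p3.

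**Figure D3:**
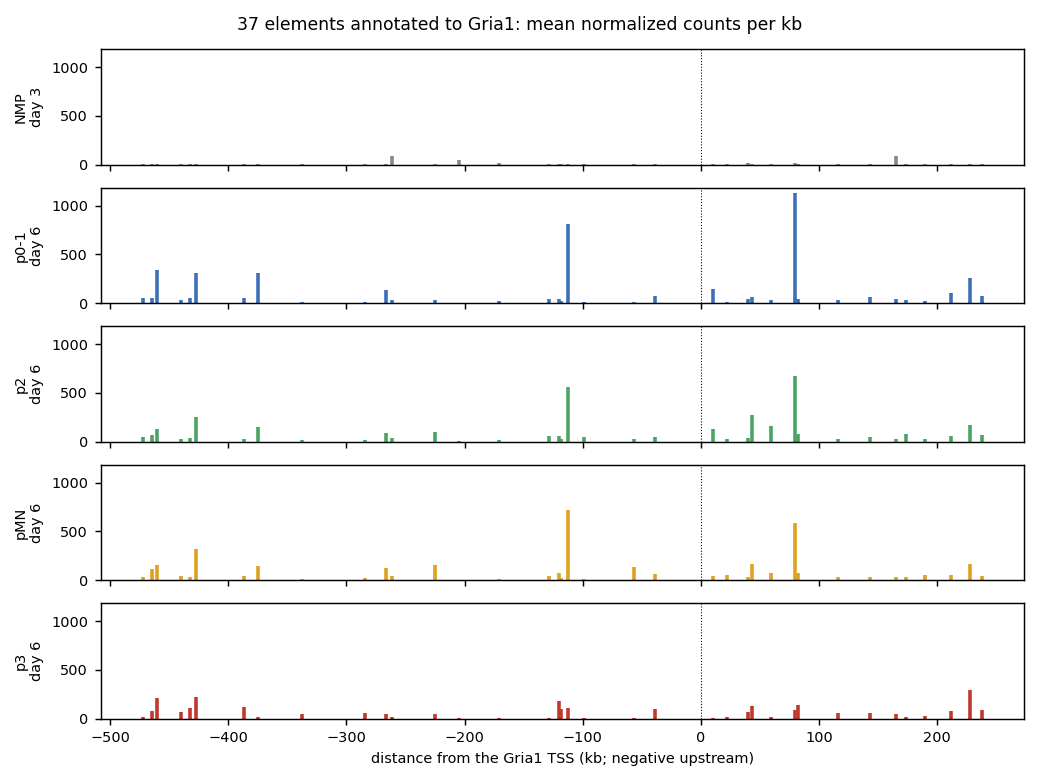
The 37 elements annotated to Gria1, by distance from its TSS in kb (x axis, negative upstream), with their mean normalized counts per kb of element (y axis, the same in each panel) in NMPs at day 3 and in the 4 domains at day 6. Each bar is 1 element and the dotted line is the TSS. The elements at -112.8 and +79.9 kb stand out in p0-1, p2 and pMN and are low in p3 and NMPs.

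Kainate, NMDA and GABA-A genes also gained elements after day 4. Grik3 -39.7 kb (chr4:125450575-125451374) had means of 127 in p2, 209 in pMN and 80.2 in p3 at day 4. At day 6 it was between 890 and 986 in p2 with a median of 954, at 854, 1155, 819 and 1251 in pMN and at 638, 775, 638 and 642 in p3. In p0-1 it was at 96.5, 115, 147, 140 and 191, below every sample of the other domains. It rose with log2 ratios of 2.89 in p2, 2.28 in pMN and 3.05 in p3 (limma adjusted p without the filter at most 4.1e-08). Grik3 -79.6 kb rose to 283 in p2 and 482 in pMN, and Grik2 +522.3 kb to 210 in pMN. Grm3 +22.0 kb, in intron 1 of a metabotropic receptor gene, rose to 280 in p0-1 and 321 in p2, Grm7 -770.9 kb to 208 in p0-1, Gria3 +24.4 kb to 253 in p0-1 and 275 in p2, and Gria3 -70.3 kb to 197 in p2. Of GABA-A elements, Gabrg3 +281.5 kb rose to 236 in p0-1, Gabrb2 +161.7 kb to 217 in p2 and Gabrb2 +335.5 kb to 209 in p3. The p0-1 call of Gabrg3 +281.5 kb was lost without the day 4 p0-1 sample of 10 nM, replicate 2 (log2 ratio 1.99), or replicate 3 (1.91). The p2 call of Gria3 +24.4 kb was lost, at log2 ratios between 1.96 and 2.00, on leaving out day 4 replicate 1 or 3 at 100 nM or day 6 replicate 1 or 3 at 10 nM. The p0-1 call of Grm3 +22.0 kb was lost without replicate 2 (adjusted p = 0.0151 by limma). Centring the samples ended the calls of Gabrg3 +281.5 kb, of Gria3 +24.4 kb in both domains, of Grm3 +22.0 kb in p2 and of Grik3 -39.7 kb in pMN, at log2 ratios between 1.75 and 1.94.

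The third question was where the domains differed, above all p3 and pMN, which were sorted at the same SAG concentrations. At day 4, 0 of 62 tested receptor elements were higher in p3 (background 0.179%) and 2 lower (1.07%), Gria1 -374.7 kb and Grik3 -177.3 kb. The second was not called without the p3 sample of 500 nM, replicate 1 (log2 ratio -1.94). At day 5, 1 of 74 was higher (1.99%) and 3 lower (3.68%), and at day 6, 4 of 83 were higher (5.03%) and 8 lower (5.97%). Without the filter, 1 of 347 was higher (0.48%) and 9 lower (1.49%) at day 4, 16 higher (3.71%) and 39 lower (5.16%) at day 5, and 28 higher (6.88%) and 48 lower (6.51%) at day 6. At day 5 and day 6 the shares lower in p3 were above the background, with 39 and 48 of 347, and of elements beyond 1000 bp 12.3% and 15.1% were lower against 5.83% and 7.36% of all. Against p0-1 at day 6, p3 had 6 of 80 higher (6.21%) and 12 lower (6.39%), and without the filter 40 higher (8.58%) and 52 lower (6.74%). Against p0-1, pMN had 3 of 83 higher (2.19%) and 1 lower (0.714%), and without the filter 17 higher (2.76%) and 6 lower (0.932%). These comparisons share the day 6 samples. All filtered counts between domains are given as a description, for the reason stated for the fits from NMPs. Centring the samples left 4 higher and 5 lower for p3 against pMN at day 6, and without replicate 3 there were 5 calls. Leaving out p0-1 at day 6 (0 nM, replicate 3), the sample that stood apart, gave 8 higher and 11 lower in p3 and 3 higher and 2 lower in pMN against p0-1.

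**Figure D4:**
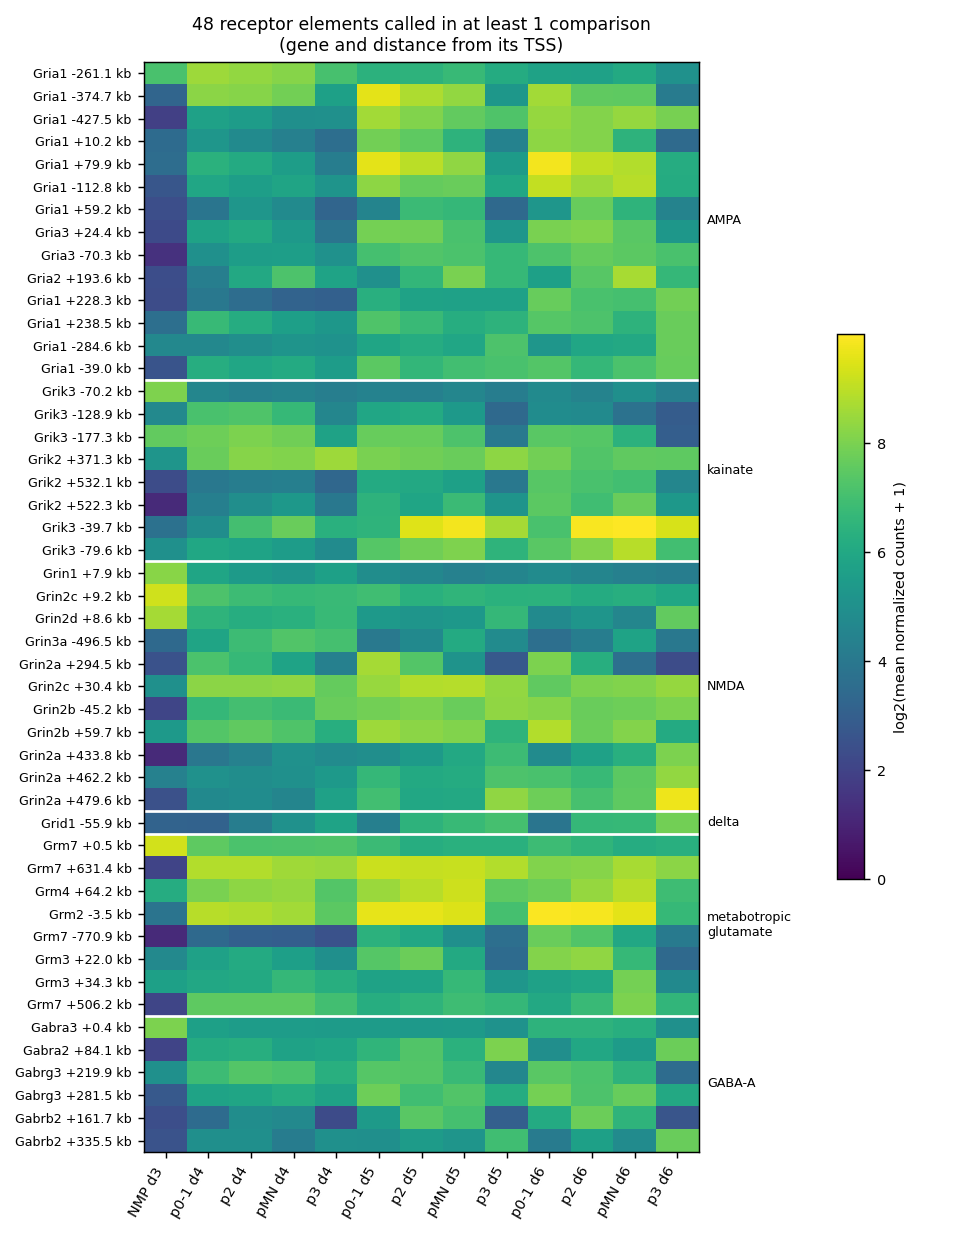
Mean level, as log2 of normalized counts plus 1 (color), of the 48 receptor elements called in at least 1 comparison (rows, by receptor class) in each sorted group (columns). These elements were chosen by their calls. Gria1, Grm2, Grm3 and Grin2a hold rows that are high in p0-1, p2 or pMN at day 6 and low in p3, and Grin2a +479.6 kb is highest in p3.

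Of the 8 elements lower in p3 than in pMN at day 6, 4 were at AMPA, 3 at metabotropic and 1 at kainate receptor genes. Beside Gria1 +79.9 kb (465 in pMN and 71.2 in p3, log2 ratio -2.69) and Gria1 -112.8 kb (480 and 69.4, -2.77), Gria3 +24.4 kb was at 171 and 38.7, Grm4 +64.2 kb at 490 and 117, and Grik2 +522.3 kb at 210 and 39.6. In the fits without the filter, the adjusted p of these calls by limma was at most 9.11e-05. Gria2 +193.6 kb, intergenic beyond the gene (chr3:80608487-80609936), was at 374, 413, 413 and 451 in pMN, between 75.4 and 101 in p2 from 10 nM SAG and 223 and 286 in p2 from 100 nM, at 140, 90.5, 75.1 and 98.1 in p3 and between 28.3 and 63.9 in p0-1. The pMN samples were above those of every other domain. Its log2 ratio was -2.02 for p3 to pMN and 3.03 for pMN to p0-1 (limma adjusted p without the filter 6.16e-06 and 4.20e-06). The first call lies at the threshold of the fold and was lost without pMN at 500 nM, replicate 3 (-1.98), p3 at 100 nM, replicate 3 (-1.97), or p3 at 500 nM, replicate 2 (-1.90). That of Gria3 +24.4 kb was lost without p3 replicate 3 at 100 nM (-1.97) or 500 nM (-1.96), and when the SAG concentrations of a replicate number were averaged (limma adjusted p = 0.0111). Centring the samples ended both calls, at -1.90 and -1.97.

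Grm3 +34.3 kb, in intron 1 of Grm3 (chr5:9690632-9691383), was high in pMN alone at day 6. At day 6 it was at 223, 331, 147 and 256 in pMN, against 23.1, 36.6, 21.9 and 20.4 in p3, between 30.6 and 87.0 in p2 and at 25.9, 73.4, 54.9, 46.6 and 58.1 in p0-1. No sample of another domain reached the pMN samples. The log2 ratio was -3.18 for p3 to pMN and 2.19 for pMN to p0-1 (limma adjusted p without the filter 5.31e-06 and 2.02e-04). The second call was lost without the pMN sample of 100 nM, replicate 3 (1.99), and with the SAG concentrations averaged (limma adjusted p = 0.0117). At day 4 the pMN samples lay between 70.7 and 116 and those of p3 between 32.3 and 114, so that the domains overlapped. The change from day 4 to day 6 differed between p3 and pMN by -2.80 on the log2 scale (limma interaction, adjusted p without the filter 3.09e-05). It was 1 of 2 elements of 69 tested with a lower change in p3 (background 1.02%), and 0 had a higher one (1.32%). The other was Gria1 -112.8 kb, at -2.09, and its call was lost, at -1.84 to -1.997, without any 1 of 7 samples: p3 at day 4 (100 nM, replicate 2), p3 at day 6 (replicate 3 at 100 or 500 nM), pMN at day 4 (replicate 3 at 100 or 500 nM) and pMN at day 6 (replicate 2 at 100 or 500 nM). It was also lost with centring (-1.96), with voom (adjusted p = 0.0139) and with the SAG concentrations averaged (limma adjusted p = 0.0354).

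Grin2a, an NMDA subunit gene, held elements of opposite pattern at the 2 ends of the dorsoventral order. Grin2a +294.5 kb, in intron 5 (chr16:9700944-9701694), was at 4.85, 4.05 and 5.38 in NMPs and had day 4 means of 143, 104, 54.1 and 19.7 from p0-1 to p3. At day 6 it was at 210, 510, 126, 136 and 330 in p0-1, between 44.1 and 127 in p2 with a median of 69.7, at 17.9, 13.1, 9.02 and 5.84 in pMN and at 4.95, 3.05, 2.31 and 5.83 in p3. The order from p0-1 to p3 held for the group means at each day. At day 6 the highest p2 sample (127) was just above the lowest p0-1 sample (126), so these domains overlapped. The log2 ratio at day 6 was -5.71 for p3 to p0-1 and -4.40 for pMN to p0-1. The element passed the filter through p0-1, and in the fits without the filter limma gave it an adjusted p of 1.54e-06 and 4.54e-05.

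Grin2a +479.6 kb, intergenic beyond the gene (chr16:9515565-9516854), was highest in p3. It was between 22.2 and 76.3 in p3 at day 4, at 391, 244, 345, 242 and 391 at day 5, and at 681, 1053, 659 and 1055 at day 6. At day 6 it was at 105, 257, 101 and 263 in pMN, between 83.2 and 278 in p2 and at 232, 530, 87.9, 76.9 and 170 in p0-1. All p3 samples were above all others, and within both p3 and pMN the samples of replicate 2 were lower than those of replicate 3, at either SAG concentration. The log2 ratio of p3 to pMN was 2.30 at day 5 and 2.24 at day 6 (limma adjusted p without the filter 1.22e-07 and 1.01e-04). Grin2a +433.8 kb and +462.2 kb, its neighbors, rose in p3 to 258 and 334. Grin2d +8.6 kb, which had fallen from NMPs, was at 160, 190, 154 and 256 in p3 at day 6 against 18.8, 22.5, 24 and 26.9 in pMN (log2 ratio 2.99). Gabrb2 +335.5 kb (132, 212, 173 and 318 in p3 against 17, 19.7, 28.1 and 43.2 in pMN) and Gabra2 +84.1 kb (means of 212 and 44.1) were the GABA-A elements higher in p3. Grid1 -55.9 kb, near the delta receptor gene, was at 198, 221, 218 and 304 in p3 and between 8.92 and 18.6 in p0-1 (log2 ratio 4.01), and the call of its rise from day 4 in p3 was lost without day 4 replicate 1 or 2 at 100 nM or day 6 replicate 3 at 500 nM (1.87 to 1.95). The element at Shh, a marker of the floor plate, was at 280 in p3 at day 6 against 67.4 to 72.9 in the other domains, and the part of such cells in these values was not tested.

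**Figure D5:**
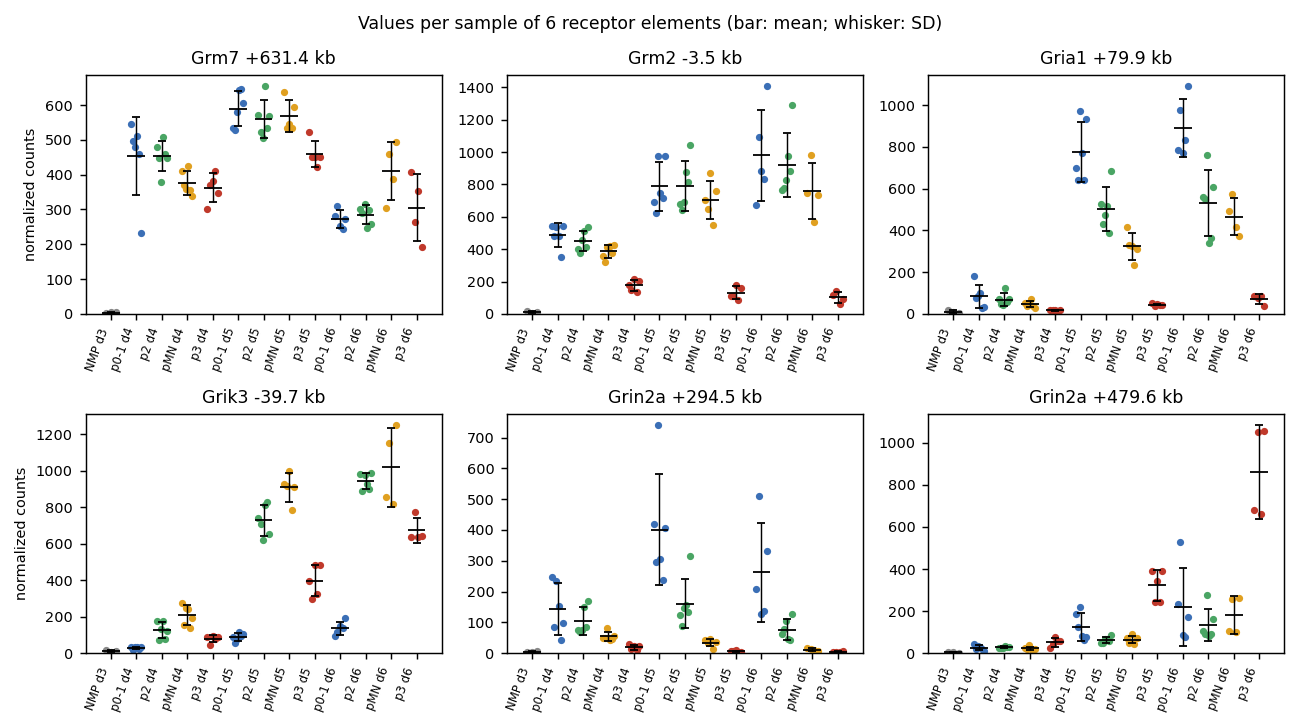
Normalized counts (y axis) of 6 receptor elements in every sample, by sorted group and day (x axis). Points are samples, horizontal bars are means and whiskers are SDs. Grm7 +631.4 kb rises in all domains at day 4, Grm2 -3.5 kb and Gria1 +79.9 kb are lowest in p3 among the domains at day 6, Grik3 -39.7 kb is low in p0-1, and the Grin2a elements are high in p0-1 or in p3.

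No receptor element was called between SAG concentrations within a domain at a fold above 4, in fits over days 4, 5 and 6 with day as a term. With a fold above 2, which the paper used for its day 5 comparisons, 1 was called in p2. The share of all elements called under that rule is not given here. Of 77 tested receptor elements in p0-1 between 0 and 10 nM, 78 in p2 between 10 and 100 nM, 76 in pMN and 70 in p3 between 100 and 500 nM, limma called 0, where 0% of all tested elements were called in either direction in each of the 4 fits. Unadjusted p values of limma under 0.05 were found for 13, 15, 4 and 3 of them. The share of all tested elements with such values is not given here, so these counts are not read as a response to SAG. With limma's voom on the recovered reads, 0 were also called. Single elements had values that did not overlap between concentrations on at least 1 day, and those given here were chosen after their values were seen. How many of all elements had such values was not counted. With so few samples for each concentration, such values do not show an effect of SAG. Grin2a +479.6 kb in p0-1 at day 5 was at 188, 125 and 220 in 0 nM and at 79.9, 61.0 and 78.0 in 10 nM. In p0-1 at day 6, Grm3 +22.0 kb was at 113 and 98.1 in 0 nM and at 475, 358 and 358 in 10 nM, and Gria1 +10.2 kb at 182 and 128 in 0 nM and at 520, 355 and 372 in 10 nM. In p3 at day 6, Grin2a +479.6 kb was at 681 and 1053 in 100 nM and at 659 and 1055 in 500 nM. The group values of these elements pool such samples. The paper gives its replicates as independent differentiations. The labels do not say whether samples of the same number at different SAG concentrations come from 1 differentiation.

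Genes that act with these receptors were described by the element nearest their TSS. The lists held 49 genes with such an element, 4 of transmitter synthesis, 4 of vesicular loading, 6 of reuptake, 2 of chloride balance, 5 glycine receptors, 12 auxiliary subunits and 16 postsynaptic scaffolds. Of the 36 to 39 tested in each comparison, 1 was called lower from NMPs to each NP domain, where between 6.21% and 7.74% of all tested elements were called lower, and 0 were called in any other comparison. That gene was Cacng8, an auxiliary subunit of AMPA receptors, whose nearest element, 26909 bp from the TSS, fell from 303 to between 51.7 and 70.8. The elements at Gad1 and Gad2, the enzymes that make GABA, were at 935 and 937 in NMPs and between 236 and 333, and 291 and 411, at day 6.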

How the data were processed

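CaTS-ATAC covered 67 samples. The 25 conditions had 3 replicates in 17 cases and 2 in the other 8. Reads were run by the authors through nf-core/atacseq on mm10. The authors called peaks with MACS, kept consensus peaks found in at least 2 replicates, and deposited counts after the variance-stabilizing transformation (VST) of DESeq2, which are log2-scale values. These were inverted to normalized counts and whole reads, and 100.0% of the values under 1000 reads were whole within 1e-06. Depth ranged from 9298160 to 29985325 reads in elements.

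Because the table holds VST values, limma 3.58.1 (R 4.3.3) with a variance trend was the main test, two-sided, on those elements whose normalized counts averaged above 100 over the samples of a comparison. Calls needed a Benjamini-Hochberg adjusted p under 0.01 and a log2 ratio of mean normalized counts (pseudocount 1) beyond 2. SAG concentrations were pooled within a cell type and day, except where they were compared. NMPs were compared with each domain at day 4, day 4 with day 6 in each domain, p3 with pMN at each day, and p3 and pMN with p0-1 at day 6. The scripts were tested on simulated data. Python 3.11.15, numpy 2.4.6, pandas 2.3.3, pysam 0.24.0 and matplotlib 3.10.9 were also used.

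Of 403 elements annotated to the 34 genes, 56 had no value in the table and were not analysed here. The elements named were up to 3 called elements that increased most and up to 3 that decreased most in each comparison, the promoter elements, the 10 with the widest range, and the most accessible per kb for each gene. Other called elements were named after their values were seen. The members and lists were chosen with earlier results of these data known. Alternatives were a fold above 2, a mean above 30, no filter, a replicate block, voom on the recovered reads, centring on sample medians and leaving out samples. Averaging the SAG concentrations of a replicate number was added after seeing the data. The paper gives its replicates as 3 independent differentiations and describes comparing cell types sorted from the same dish. The labels do not say whether a replicate number marks the same differentiation across SAG concentrations. The main fits treat all samples as independent, with no term for a shared dish or differentiation. Their p-values therefore measure the spread between these samples and not between differentiations. In 15 samples the replicate number differs between title and description, so the title's was used.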

Additional observations from a re-analysis of the deposited data

Results flagged for a closer look

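For the 8 elements whose sequence is shown, 96 groups of 4 to 6 samples were searched for a single sample far from the rest, and 10 were found. Chance alone gives about 1 in 20 such groups. Grm7 +631.4 kb was at 233.4 normalized counts in p0-1 at day 4 (10 nM, replicate 3), with the others between 460.1 and 544.4. Grm2 -3.5 kb was at 352.4 in p0-1 at day 4 (10 nM, replicate 2), with the others between 479.3 and 544.5. Gria1 +79.9 kb was at 126.2 in p2 at day 4 (10 nM, replicate 1), with the others between 40.5 and 72.5, and at 13.16 in p3 at day 4 (500 nM, replicate 1), with the others between 18.17 and 19.72. Grik3 -39.7 kb was at 775.1 in p3 at day 6 (100 nM, replicate 3), with the others between 637.5 and 641.8. Grin2a +294.5 kb was at 740.1 in p0-1 at day 5 (0 nM, replicate 3) and at 314 in p2 at day 5 (10 nM, replicate 3), above all the others of those groups. Grin2a +479.6 kb was at 39.59 in pMN at day 4 (100 nM, replicate 3), with the others between 13.77 and 22.94. Grm3 +34.3 kb was at 17.68 in p0-1 at day 4 (10 nM, replicate 3), with the others between 59.65 and 83.42, and at 36.62 in p3 at day 6 (100 nM, replicate 3), with the others between 20.39 and 23.08.

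The change from day 4 to day 6 differed between p3 and pMN at 2 elements by limma's interaction test. The difference was -2.8 on the log2 scale at Grm3 +34.3 kb and -2.09 at Gria1 -112.8 kb. The second was not called with centring (-1.96), with voom (adjusted p = 0.0139) or with the SAG concentrations averaged (limma adjusted p = 0.0354).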

How the results depend on the processing

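Counts below are of receptor elements called, in the order NMPs to p0-1, p2, pMN and p3 (12, 16, 16 and 10), day 4 to 6 in the same domains (11, 12, 7 and 11), p3 against pMN at days 4, 5 and 6 (2, 4 and 12), p3 and then pMN against p0-1 at day 6 (18 and 4), and the interaction (2). Without the filter, where more elements were tested, they were 116, 151, 147, 123, 56, 73, 55, 61, 10, 55, 76, 92, 23 and 28. With a mean above 30 they were 50, 68, 61, 50, 28, 44, 31, 33, 4, 27, 45, 59, 15 and 14. With a fold above 2, a looser rule, those from NMPs were 30, 41, 41 and 35, p2 and pMN from day 4 to 6 were 20 and 17, p3 against pMN 7, 17 and 21, pMN against p0-1 10, SAG in p2 1 and the interaction 7. Voom, centring and averaging over SAG concentrations (added after seeing the data) each left 1 interaction call, and the cause was not tested. Leaving out samples gave 8 to 14, 14 to 17, 14 to 19 and 9 to 13 from NMPs, 8 to 13, 10 to 13, 6 to 11 and 5 to 13 from day 4 to 6, 1 to 2, 4 to 4 and 5 to 18 for p3 against pMN, 15 to 22 and 3 to 5 against p0-1, 0 to 0 for each SAG comparison and 0 to 3 for the interaction.

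A replicate block kept 110 of 110 calls of named elements. Samples of the same number had a median correlation of deviations of 0.378, against -0.213 for other pairs, and 60 of 67 samples correlated best with their own number. This is a hint from the data that samples share more than a number, and the paper describes cell types sorted from the same dish. However, 87.4% and not all of the 729 pairs were above 0.1, with a lowest of -0.461. The block was kept as an alternative, so the main p-values do not allow for such sharing. Centring ended 16 of 110 such calls, voom 4 of 110, leaving out samples 40 of 1306 and averaging over SAG concentrations 3 of 104, and in these settings 0 were reversed.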
